A study of Homo sapiens with 6 samples.

Results

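The zinc finger gene clusters of chromosome 19 were described through the chromatin loops that lie inside them. A member is a loop of the deposited list on chromosome 19 of the human genome build hg19 whose anchors, the 2 stretches of DNA that a loop brings together, both lie inside the same one of 5 clusters, at 19.7 to 24.5, 36.5 to 38.5, 44.3 to 45.0, 52.0 to 54.0 and 56.5 to 58.9 Mb. The rule uses position only and no measured value. It gave 224 members, 15.1% of the 1484 loops of the chromosome and part of a list of 46849 loops. The 19.7 Mb cluster held 42 loops, the 36.5 Mb cluster 72, the 44.3 Mb cluster 21, the 52.0 Mb cluster 45 and the 56.5 Mb cluster 44. Of the other loops of the chromosome, 49 had 1 anchor inside a cluster and the other outside it, and 1211 touched no cluster and served as the background, called the rest of the chromosome. A loop between 2 different clusters was listed 0 times. Neighbouring clusters lie further apart than the span of the longest member, 1635 kb, so this count says little about contact between them.

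The loops come from Micro-C, in which chromatin is fixed, cut between nucleosomes with micrococcal nuclease, ligated and sequenced, so that pairs of sites close together in the nucleus are counted as contacts. The cells were wild-type HAP1, a near-haploid human line derived from the KBM-7 leukaemia line and bought from Horizon Discovery, here flow-sorted for diploid cells by their Hoechst DNA stain and fixed with formaldehyde and then disuccinimidyl glutarate. There was 1 group of 6 replicates, with no other genotype or treatment, and the list merges them into 1 value per loop. No spread between replicates can therefore be given, and every interval below is an exact 95% interval for counting error or for a median over loops. Loops that share an anchor are not independent, so these intervals are too narrow. Values are said below to differ where their intervals do not overlap, or where the interval of their ratio excludes 1.

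Most genes in these clusters encode KRAB zinc finger proteins. Such a protein binds DNA through a row of zinc fingers and recruits the corepressor TRIM28, also called KAP1, through its KRAB domain, which leads to trimethylation of histone H3 at lysine 9 and to silencing, often of transposable elements. The genes arose by tandem duplication, and the clusters themselves carry that histone mark in many cell types. Among the proteins encoded here are ZNF91 and ZNF93, which silence SVA and LINE-1 retrotransposons, ZNF274, which brings the methyltransferase SETDB1 to zinc finger genes, and ZIM3, whose KRAB domain is used as a strong repressor in CRISPR interference. The 56.5 Mb cluster also holds the imprinted gene PEG3.

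The gene content was counted by gene order between flanking genes in RefSeq for GRCh38.p14, because no annotation of hg19 was used here. The flanking genes were taken from general knowledge, so these counts are approximate and no gene was assigned to a loop. In that order 184 of the 233 coding genes of the clusters, or 79.0%, had a zinc finger type symbol. On the whole chromosome, with the clusters included, 264 of 1451 did, or 18.2%. Genes with such symbols thus also lie in the rest of the chromosome, which is not a background free of zinc finger genes. The same holds for the stretches drawn from it below. A symbol does not show whether the protein has a KRAB domain. The label of the clusters therefore matched their gene content. In the stretch taken from LPAR2 to ZNF254, the 19.7 Mb cluster held 37 such genes among 42, and the 36.5 Mb cluster, from CLIP3 to SIPA1L3, held 29 among 40. Between LYPD5 and ZNF180 in the 44.3 Mb cluster there were 20 among 21. The 52.0 Mb cluster, from SIGLEC6 to ZNF813, held 40 among 55, and the 56.5 Mb cluster, from NLRP5 to ZNF837, held 58 among 75. Per zinc finger gene, the 36.5 Mb cluster had the most loops at 2.48, and the 56.5 Mb cluster the fewest at 0.759, with 1.14 in the 19.7 Mb, 1.05 in the 44.3 Mb and 1.13 in the 52.0 Mb cluster.

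The clusters were not alike in how many loops they held per length. Together they had 18.8 loops per Mb over 11.9 Mb, against 27.8 per Mb (26.3 to 29.4) over the 43.56 Mb of the rest of the chromosome, a ratio of 0.677 (0.584 to 0.781). The 19.7 Mb cluster, the one nearest the centromere, was the sparsest at 8.75 loops per Mb (6.31 to 11.8), 0.315 times the rest (0.226 to 0.428). The 56.5 Mb cluster, nearest the end of the long arm, held 18.3 per Mb (13.3 to 24.6), 0.659 times the rest (0.477 to 0.891). The 36.5 Mb cluster was the densest at 36.0 per Mb (28.2 to 45.3), 1.29 times the rest (1.01 to 1.64). That interval only just excludes 1, and it included 1 under 5 other settings, where the ratio ran from 1.17 to 1.30. The 44.3 Mb cluster at 30 per Mb (18.6 to 45.9) and the 52.0 Mb cluster at 22.5 (16.4 to 30.1) did not differ from the rest, with ratios of 1.08 (0.666 to 1.66) and 0.809 (0.587 to 1.09).

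**Figure D1:**
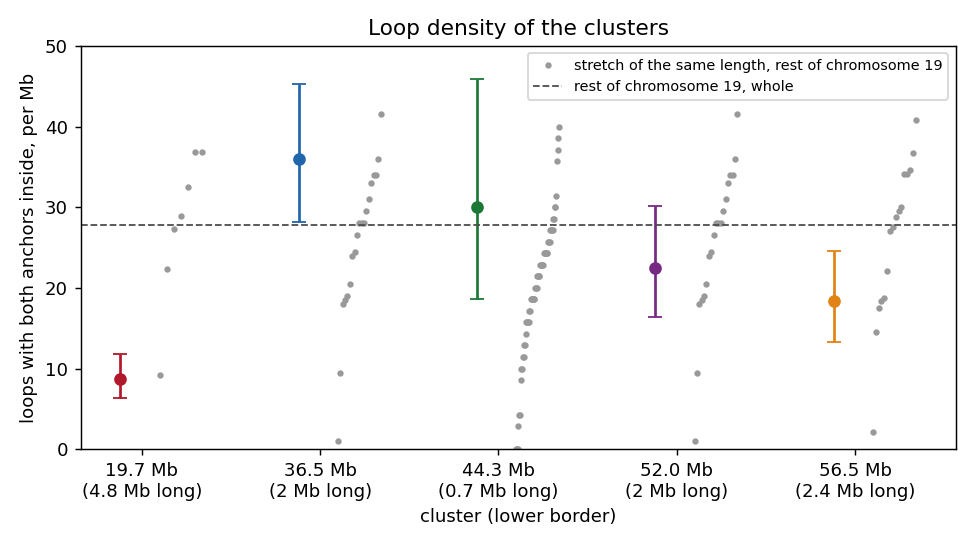
Loops per Mb (vertical axis) of the 5 zinc finger clusters with exact 95% Poisson intervals as bars, stretches of the same length in the rest of chromosome 19 as grey points, and the whole rest as a dashed line. The 19.7 Mb cluster lies lowest at 8.75 loops per Mb and the 36.5 Mb cluster highest at 36.0, on either side of the rest at 27.8.

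Between clusters, all 10 pairs were compared with 99.5% intervals, which allow for the 10 comparisons, and 5 intervals excluded 1. In 4 of these the 19.7 Mb cluster was the sparser, at 0.243 times the 36.5 Mb cluster, 0.292 times the 44.3 Mb, 0.389 times the 52.0 Mb and 0.477 times the 56.5 Mb cluster. The remaining difference was between the 36.5 and 56.5 Mb clusters, a ratio of 1.96 (1.14 to 3.47). Stretches of the rest of the chromosome of the same length, counted by the same rule, gave a further scale. All 7 stretches as long as the 19.7 Mb cluster held more loops than it did, from 9.17 to 36.9 per Mb. The lowest, from 27790001 to 32590000, lay just across the centromere and held 44 loops against 42 in the cluster. The cluster's length also includes DNA without anchors beyond 24275001, so these near-equal densities cannot be ranked. The next lowest stretch held 22.3 loops per Mb. Of 19 stretches as long as the 36.5 Mb cluster, 17 were sparser and 1 was denser. The 44.3 Mb cluster was denser than 53 of 60 stretches of its length, whose median was 21.4 loops per Mb. Stretches this short kept a median of 56.1% of the loops that touched them, so the rule counts fewer loops in them than in longer ones. Of 16 stretches as long as the 56.5 Mb cluster 12 were denser, and of 19 as long as the 52.0 Mb cluster 13 were.

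Loops were unevenly placed within the 19.7 and 56.5 Mb clusters. The longest stretch of the 19.7 Mb cluster with no loop anchor ran from 20250001 to 20755000, or 505 kb, and 2 more stretches there measured 355 and 335 kb. In the 56.5 Mb cluster, no anchor lay between 57080001 and 57610000, a stretch of 530 kb that no member spanned, with 10 loops below it and 34 above it. The longest such stretches of the other clusters were shorter, at 140 kb in the 36.5 Mb, 100 kb in the 44.3 Mb and 170 kb in the 52.0 Mb cluster. Below its 505 kb stretch the 19.7 Mb cluster held 12 loops in 0.55 Mb, or 21.8 per Mb, and above it 29 loops in 3.745 Mb, or 7.74 per Mb. This division was chosen after the values were seen and was not tested. The list gives no measure of how much of each cluster could be mapped.

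**Figure D2:**
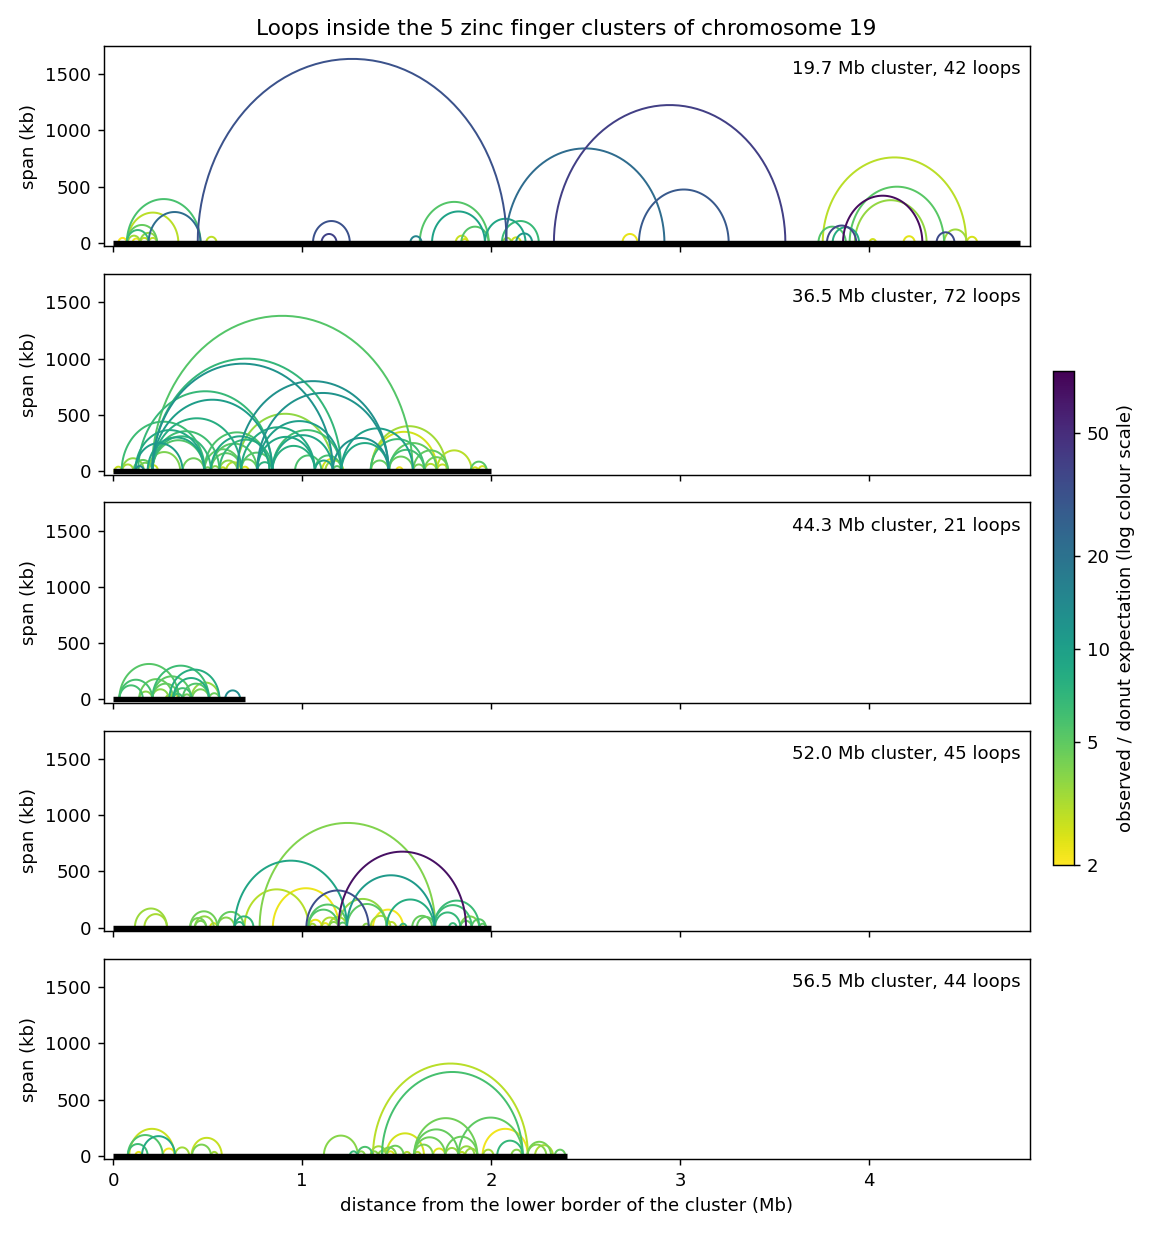
Loops inside each cluster drawn as arcs between their anchors, with distance from the cluster's lower border in Mb on the horizontal axis, span in kb as height and strength as colour (log scale). Arcs crowd the 36.5 Mb cluster along its whole length, while the 19.7 Mb cluster shows long stretches with few arcs.

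Loops in the clusters stood on a thinner layer of local contacts than loops elsewhere. The loop caller compares the contacts counted at a loop with the number expected from a ring of pixels around it, the donut expectation. Contact depth is used here for the log2 of that expectation minus its median over all loops of like span in the list, for loops called with 5 kb anchors, so that 0 is the usual level. Its median was -0.61 (-0.76 to -0.54) over the 198 such loops of the clusters, or 0.654 times the usual level, against -0.13 (-0.16 to -0.09) over 1057 loops in the rest of the chromosome. Depth was below 0 for 180 of the 198 loops, or 90.9%, against 59.4% in the rest.

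The 19.7 Mb cluster had a median depth of -1.12 (-1.71 to -0.57), or 0.460 times the usual level. Without loops of a ratio of at least 20, which have low expectations, its median was -0.77 (-1.24 to -0.48) over 28 loops, still below the rest, and its difference from the rest went from -0.99 to -0.65. Its intervals overlapped those of the 36.5, 52.0 and 56.5 Mb clusters in both cases. The 52.0 and 56.5 Mb clusters shared a median of -0.74, with intervals of -0.92 to -0.40 and -0.91 to -0.54, and the 36.5 Mb cluster had -0.57 (-0.69 to -0.44). Each of these 4 lay below the rest with no overlap of intervals. The 44.3 Mb cluster, at -0.29 (-0.55 to -0.05), overlapped the rest. None of the stretches of like length outside the clusters had a lower median depth than the 19.7, 36.5, 52.0 or 56.5 Mb cluster, among 7, 18, 18 and 15 stretches with a value, while 11 of 46 lay below the 44.3 Mb cluster. Within the 19.7 Mb cluster the median depth was -0.44 below the 505 kb stretch and -1.62 above it, where there were also fewer loops per Mb. The same order of loop density and depth did not hold across clusters. The 36.5 Mb cluster had a lower depth than the rest without having fewer loops per Mb. Its density ratio was 1.29 (1.01 to 1.64), with an interval that included 1 under other settings.

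Over all clusters the contacts at the loops themselves were also fewer. The median observed count was 27 (25 to 29) in the clusters and 36 (34 to 37) in the rest, at median spans of 120 kb (100 to 145) and 115 kb (105 to 130), whose intervals overlapped. A count of 27 carries a counting interval of 17.8 to 39.3, so the count at a single loop is known only within about that range. Loop strength, defined below as a ratio of that count, is no better known in proportion. By cluster the median observed count was 23.5 in the 19.7 Mb, 24 in the 36.5 Mb, 41 in the 44.3 Mb, 29 in the 52.0 Mb and 26 in the 56.5 Mb cluster. Median spans differed between clusters, from 87.5 kb in the 56.5 Mb to 185 kb (115 to 275) in the 36.5 Mb cluster, so counts were also set against loops of like span. On that log2 scale the rest had a median of 0.06 (0.00 to 0.13). Below it lay the 19.7 Mb cluster at -0.45 (-0.64 to -0.19), the 52.0 Mb cluster at -0.27 (-0.36 to -0.05) and the 56.5 Mb cluster at -0.56 (-0.64 to -0.27). The intervals of the 36.5 Mb cluster at -0.12 (-0.19 to 0.00) and the 44.3 Mb cluster at 0.25 (-0.14 to 0.49) met or overlapped that of the rest.

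Loop strength, the observed count divided by the donut expectation, was higher in the clusters, with a median of 4.72 (4.29 to 5.05) against 3.90 (3.77 to 4.05) in the rest. It ran from 2.06 to 72.3 over the 224 members. The 36.5 Mb cluster at 5.28 (4.73 to 6.12) and the 44.3 Mb cluster at 5.14 (4.35 to 6.07) lay above the rest on this unadjusted scale. Overlapping the rest were the 19.7 Mb cluster at 5.28 (3.34 to 8.38), the 52.0 Mb cluster at 4.48 (3.83 to 5.21) and the 56.5 Mb cluster at 3.87 (3.33 to 4.22). Set against loops of like span in the whole list, log2 strength was 0.42 higher (0.31 to 0.51) in the clusters and 0.19 higher (0.15 to 0.23) in the rest. At like span the 36.5 Mb cluster at 0.42 (0.24 to 0.66) and the 52.0 Mb cluster at 0.54 (0.35 to 0.71) lay above the rest. It was overlapped by the 19.7 Mb cluster at 0.31 (0.15 to 0.96), the 44.3 Mb cluster at 0.54 (0.14 to 0.85) and the 56.5 Mb cluster at 0.31 (0.16 to 0.47). The call thus depended on the scale for the 44.3 and 52.0 Mb clusters. Because the expectation is the divisor of this ratio, loops were also set against loops of like expectation. There the medians were 0.17 (0.08 to 0.28) in the clusters and 0.14 (0.10 to 0.18) in the rest, which did not differ beyond their intervals. On that scale the 44.3 Mb cluster was above the rest at 0.43 (0.38 to 0.68), the 56.5 Mb cluster was below it at -0.10 (-0.21 to 0.04), and the 36.5 Mb cluster at 0.27 (0.10 to 0.37) overlapped it.

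**Figure D3:**
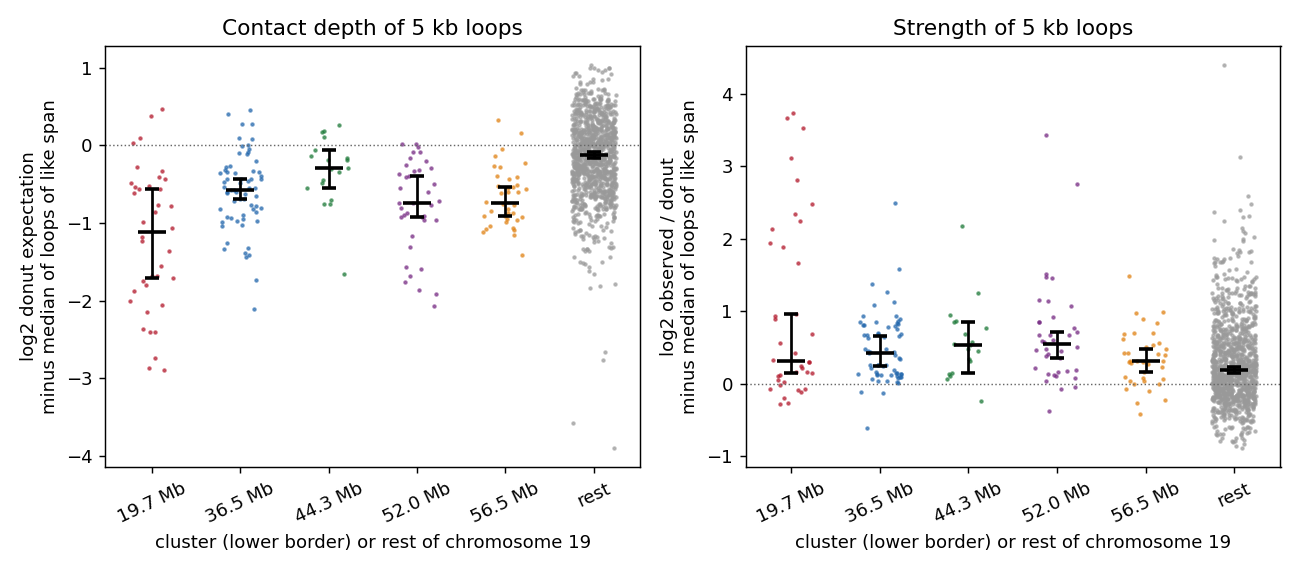
Contact depth (log2 against loops of like span) and loop strength (log2 against loops of like span) for each cluster and the rest of chromosome 19, with 1 point per 5 kb loop and the median with its exact 95% interval. The 19.7 Mb cluster has the lowest median depth at -1.12, and median strength lies at 0.31 to 0.54 in the 5 clusters against 0.19 in the rest.

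Strength was also compared within classes of span. For loops of 200 to 500 kb the median was 6.37 (5.33 to 8.0) over 54 loops in the clusters and 4.60 (4.30 to 4.95) over 323 in the rest. The 36.5 Mb cluster held 25 of the 54, with a median of 7.78 (6.16 to 8.74). Below 100 kb the values were 3.55 (3.31 to 3.89) over 95 loops and 3.09 (2.99 to 3.20) over 539. From 100 to 200 kb the intervals overlapped, at 4.82 (4.54 to 5.45) and 4.45 (4.15 to 4.84), as they did from 500 to 1000 kb, at 7.99 (3.70 to 12.6) over 14 loops and 5.27 (4.76 to 5.91) over 83. Of the 18 members of at least 500 kb, 8 lay in the 36.5 Mb cluster, 5 in the 19.7 Mb, 3 in the 52.0 Mb, 2 in the 56.5 Mb and 0 in the 44.3 Mb cluster.

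A ratio of at least 5 was reached by 97 of the 224 members, or 43.3%, against 31.2% of the rest of the chromosome and 28.9% of the whole list. By cluster these were 22 of 42 loops, 39 of 72, 11 of 21, 18 of 45 and 7 of 44, in the order of position. A ratio of at least 20, a level chosen after the values were seen, was reached by 12 members, or 5.36%, against 0.248% of the rest of the chromosome, which is 3 loops, and 0.587% of the whole list. Of the 12, 10 lay in the 19.7 Mb cluster and 2 in the 52.0 Mb cluster. They had observed counts from 11 to 107 and expectations from 0.371 to 3.85. In 6 of the 12 a single pixel made up the call, none merged more than 3 pixels, and 2 shared an anchor with another member. All 12 had each of the loop caller's q-values in the authors' deposited table at 0.1 or below.

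**Figure D4:**
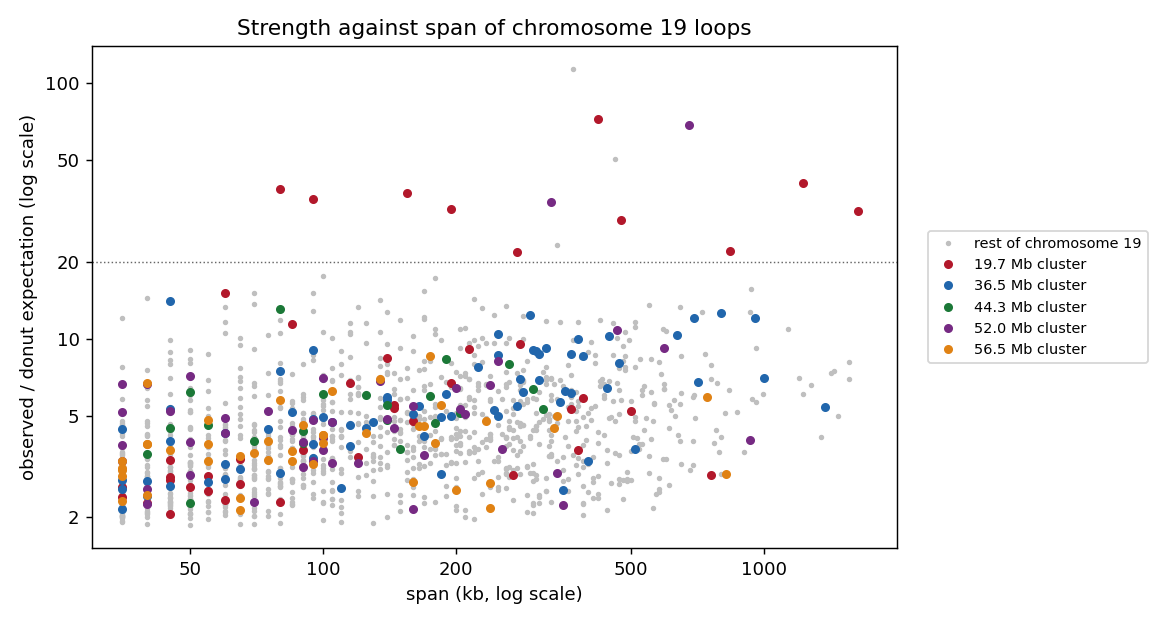
Loop strength (observed count over donut expectation, log axis) against span in kb (log axis) for loops of chromosome 19, coloured by cluster, with the rest in grey. Above the dotted line at 20 lie 12 cluster loops, 10 of them from the 19.7 Mb cluster, and 3 loops of the rest.

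In the 19.7 Mb cluster the strongest loop joined chr19:23560001-23565000 to chr19:23980001-23985000, 420 kb apart, with 81 contacts (64.3 to 101) where 1.12 were expected, a ratio of 72.3. The loop with the most contacts joined chr19:24055001-24060000 to chr19:24150001-24155000, with 107 contacts (87.7 to 129) against 3.04 expected. Another joined chr19:23475001-23480000 to chr19:23630001-23635000, with 97 contacts (78.7 to 118) against 2.62. These 3 lay in the upper part of the cluster, and each rested on 1 or 2 pixels. Nearer the lower border, chr19:19885001-19890000 met chr19:20160001-20165000 with 84 contacts (67.0 to 104) against 3.85, and chr19:20800001-20805000 met chr19:20880001-20885000 with 63 (48.4 to 80.6) against 1.64. The longest 2 loops spanned 1635 and 1225 kb, from 20145001 to 21780001 and from 22030001 to 23255001, with 14 and 15 contacts against 0.444 and 0.371, so that each rested on few contacts. Most anchors of this cluster served a single loop: 12 of 62, or 19.4% (10.4 to 31.4), took part in more than 1. Its busiest anchor, chr19:19770001-19780000 close to the lower border, took part in 6 loops, and chr19:19885001-19890000 in 4.

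Loops of the 36.5 Mb cluster formed a network. Overlapping anchors were merged, and anchors that only touch were kept apart, which gave 41 anchors, each with 3.51 loop ends on average, against 2.08 in the rest of the chromosome. More than 1 loop used 31 of the 41, or 75.6% (59.7 to 87.6), against 51.4% (48.5 to 54.3) in the rest, and 71 of the 72 loops shared an anchor with another member. A single connected group held 35 of the 41 anchors. Sets of 3 anchors in which every pair was joined by a loop occurred 33 times, or 16.5 per Mb, against 3.28 per Mb in the rest. Such sets held 51 of the 72 loops, or 70.8% (58.9 to 81.0), against 27.8% (25.3 to 30.4) in the rest. Among pairs of loops that met at an anchor, a measure that does not count unconnected anchors, the far ends were themselves joined in 33.1% of 299 pairs (27.8 to 38.8) and in 16.2% of 2648 pairs (14.8 to 17.7) in the rest. The 19.7 Mb cluster, with few meeting loops, had 37.5% of 40 pairs (22.7 to 54.2). Its joined pairs came from only 5 sets of 3 anchors, and chr19:19885001-19890000 took part in 4 of these, so the value rests largely on a local group. Each set adds 3 joined pairs, here and in the other shares of pairs, so these intervals are too narrow. Shares in the 44.3, 52.0 and 56.5 Mb clusters, at 21.8%, 18.8% and 16.4%, overlapped the rest.

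The busiest anchor of the 36.5 Mb cluster, chr19:36700001-36710000, took part in 10 loops of 75 to 1380 kb, and 8 of them ran to higher coordinates. Next came chr19:37340001-37345000 and chr19:36980001-36990000 with 8 loops each. The cluster held 4 groups of 4 anchors joined in every pair. There were 5 such groups in the 43.56 Mb of the rest, 1 in the 19.7 Mb cluster and 0 in each other cluster. The 4 groups overlapped, with the anchors at 37340001 and 37705001 in more than 1 of them. Among these groups, 1 linked the anchors at 36700001, 37340001, 37660001 and 37705001 through loops of 45 to 1000 kb with ratios from 5.31 to 12.0. The loop with the most contacts of all members lay near the lower border, between chr19:36615001-36620000 and chr19:36660001-36665000, with 227 contacts (198 to 259) against 16.1 expected and 11 merged pixels. Among long loops, chr19:37660001-37665000 met chr19:37955001-37960000 at 295 kb with 24 contacts (15.4 to 35.7) against 1.95, and chr19:37260001-37265000 met the same upper anchor at 695 kb with 17 (9.90 to 27.2) against 1.41. The longest loop joined chr19:36700001-36710000 to chr19:38080001-38090000 over 1380 kb, with 14 contacts (7.65 to 23.5) against 2.59.

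**Figure D5:**
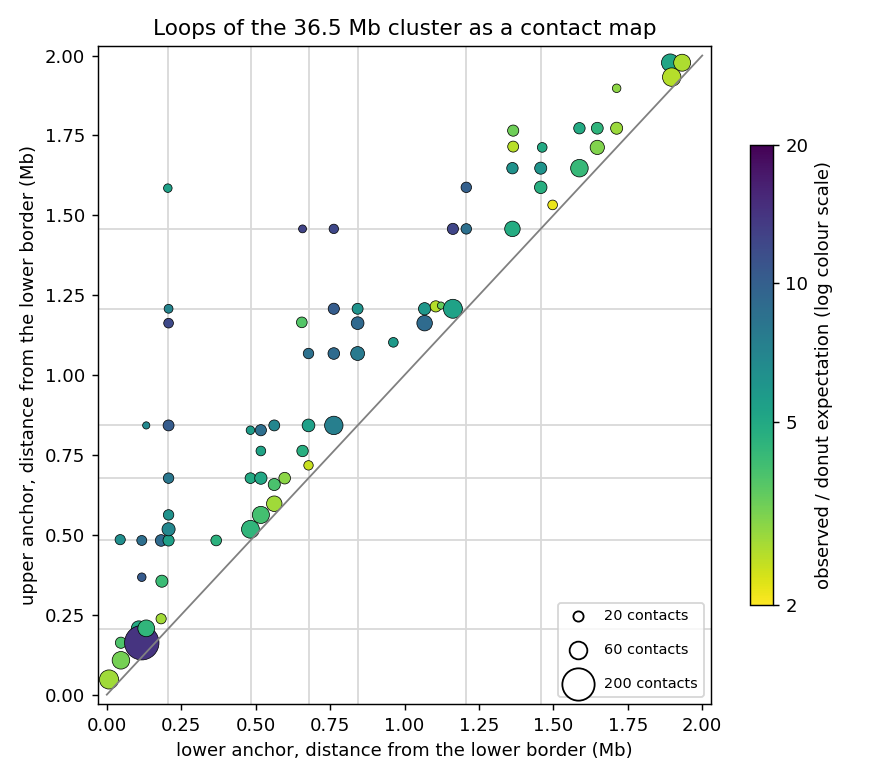
Loops of the 36.5 Mb cluster as points, with the distance of their lower and upper anchors from the lower border on the axes (Mb), observed contacts as point size, strength as colour (log scale) and grey lines at the 6 busiest anchors. The points form rows and columns because anchors are reused, as at the anchor with 10 loops.

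In the 44.3 Mb cluster, the shortest of the 5, 13 of 15 anchors belonged to 1 connected group and 11 took part in more than 1 loop. Its highest counts were short loops around chr19:44500001-44510000, an anchor with 6 loops that met chr19:44590001-44600000 with 117 contacts (96.8 to 140) against 30.1, and around chr19:44615001-44620000, an anchor with 5 loops that met chr19:44665001-44670000 with 109 (89.5 to 131) against 17.6. Its highest ratio was 13.1, between chr19:44890001-44895000 and chr19:44970001-44975000, with 45 contacts (32.8 to 60.2) in a single pixel. The 44.3 Mb cluster held no loop longer than 315 kb.

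In the 52.0 Mb cluster 27 of 44 anchors were connected, and 19, or 43.2%, took part in more than 1 loop. Its busiest anchors were neighbours, chr19:53190001-53200000 with 7 loops and chr19:53235001-53240000 with 6, and a loop joined them with 84 contacts (67.0 to 104) against 16.1. The highest count was 105 (85.9 to 127) against 14.7, between chr19:52640001-52645000 and chr19:52690001-52695000. Of its 2 loops with a ratio of at least 20, 1 joined chr19:53190001-53195000 to chr19:53865001-53870000 over 675 kb with 62 contacts (47.5 to 79.5) against 0.904, and the other joined chr19:53020001-53025000 to chr19:53350001-53355000 with 58 (44.0 to 75) against 1.70. The next ratio in the cluster was 10.9.

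The 56.5 Mb cluster had short and moderate loops. Its median span was 87.5 kb (65 to 125), and its highest ratio was 8.58, between chr19:56650001-56655000 and chr19:56825001-56830000, with 46 contacts (33.7 to 61.4) against 5.36. Loops joined its anchors into small groups, of which the largest held 12 of 47. The highest count was 119 (98.6 to 142) against 17.8, between chr19:57750001-57755000 and chr19:57790001-57795000, and the upper anchor of that loop met chr19:57830001-57835000 with 79 (62.5 to 98.5). Next to the upper border, chr19:58835001-58840000 met chr19:58890001-58895000 with 87 contacts (69.7 to 107) over 14 merged pixels. Its 3 busiest anchors, at 57940001, 58090001 and 58325001, took part in 5 loops each.

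Over all clusters, anchor reuse was not above the rest of the chromosome. More than 1 loop used 45.5% of the 209 anchors, against 51.4% of 1162, and 86.2% of loops (80.9 to 90.4) shared an anchor, against 90.9% (89.2 to 92.5). Without the 36.5 Mb cluster the pooled share was 80.3% (73.0 to 86.3), below the rest with no overlap. Of the clusters then left, only the 19.7 Mb cluster, at 54.8% (38.7 to 70.2), lay below the rest with no overlap. The 44.3, 52.0 and 56.5 Mb clusters, at 95.2%, 84.4% and 93.2%, overlapped it. Sets of 3 joined anchors held 41.1% of the loops (34.6 to 47.8) against 27.8%, and 51 of those 92 loops came from the 36.5 Mb cluster.

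Most loops that touched a cluster stayed inside it. Of 273 such loops, 224 stayed, or 82.1% (77.0 to 86.4). The share was 91.7% (80.0 to 97.7) in the 56.5 Mb cluster, 83.7% in the 36.5 Mb, 82.4% in the 19.7 Mb, and 75% in both the 44.3 and 52.0 Mb clusters. The upper border of the 56.5 Mb cluster lies near the end of the long arm, and whether that position affects its share was not tested. In stretches of like length outside the clusters the median share was 88.0% for the 56.5 Mb, 82.0% for the 36.5 and 52.0 Mb, 92.9% for the 19.7 Mb and 56.1% for the 44.3 Mb cluster. The 44.3 Mb cluster thus kept more of its loops than 59 of 60 stretches, while all 7 stretches kept more than the 19.7 Mb cluster. The interval of the 44.3 Mb share was 55.1 to 89.3, which includes the median of its stretches. Stretches with no loop inside counted as 0%.

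How far border-crossing loops reached into a cluster varied. In the 36.5 Mb cluster 8 loops crossed the lower border, with inner anchors 40 to 105 kb inside it, and 6 crossed the upper border from anchors 100 to 105 kb inside. The interior between the innermost of these anchors, which by definition no crossing loop reaches, ran from 36610001 to 38390000. It measured 1.78 Mb, or 89.0% of the cluster's length, and held 63 of its loops. Taken the same way, the interior was 71.5% of the 19.7 Mb cluster with 19 loops and 70.5% of the 52.0 Mb cluster with 30. It was 16.4% of the 44.3 Mb cluster, with 0 loops. The corresponding interior of the 56.5 Mb cluster was 2.07 Mb, or 86.25% of its length, with 4 loops across the lower border and 0 across the upper. That upper border lies near the end of the long arm, and whether this position limits crossing there was not tested. In the 52.0 Mb cluster 11 loops crossed the lower border and 4 the upper, and the latter had a median ratio of 14.7 and a maximum of 17.3. Both of its anchors at 53695001 and 53925001 met the same outside anchor, chr19:54245001-54250000, with 26 contacts against 2.00 and 38 against 2.19. In the 44.3 Mb cluster 3 loops crossed the lower border, each with its inner anchor starting 10 kb inside, and all 4 loops across the upper border ended at chr19:45000001-45005000, the first 5 kb beyond that border, with 15, 28, 23 and 28 contacts.

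Of the 9 loops that crossed a border of the 19.7 Mb cluster, 7 crossed the lower one and 2 the upper one. The latter spanned the centromeric region: its anchor chr19:23475001-23480000 met chr19:28300001-28305000 with 41 contacts against 0.0204 expected, and chr19:23630001-23635000 met the neighbouring chr19:28305001-28310000 with 49. The same 2 lower anchors are the ends of the 97-contact loop given above. No loop anchor of the list lay between 24275001 and 27790000, a stretch of 3.515 Mb. The 2 loops across it had ratios of 2014.68 and 2007.55, on expectations of 0.0204 and 0.0244, against 72.3 for the strongest member. They merged 3 and 2 pixels. The list gives no measure of how well sequence beside this stretch could be mapped, and whether these calls are true loops was not tested.

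Loop calls in the 19.7 and 36.5 Mb clusters were more compact than in the rest. Over all clusters the median radius of the merged pixels was 5 kb (5 to 7.5), against 9.56 kb (8.39 to 10.0) in the rest of the chromosome. It was 3.73 kb (2.5 to 5.15) in the 19.7 Mb and 5.94 kb (2.5 to 8.33) in the 36.5 Mb cluster. Medians of 10 kb (5 to 20) in the 44.3 Mb, 5 kb (2.5 to 10) in the 52.0 Mb and 8.33 kb (5 to 10) in the 56.5 Mb cluster overlapped the rest. A single pixel made up 46 of the 224 calls, or 20.5% (15.4 to 26.4), against 13.8% (11.9 to 15.9), which overlapped. Anchors of 5 kb were used in 88.4% of the clusters' loops and 87.3% of the rest. In the authors' deposited table all of the q-values were at 0.1 or below in 83.9% and 81.3%. Strength measured against the horizontal neighbourhood had a median of 4.23 (3.88 to 4.45) in the clusters and 3.33 (3.20 to 3.44) in the rest, and against the vertical neighbourhood 4.01 (3.72 to 4.36) and 3.37 (3.24 to 3.49).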

How the data were processed

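The loop list is 1 merged table of wild-type HAP1 Micro-C, per the labels, from 6 replicates in 1 group. Per the file headers it was written by juicer_tools 1.22.01, and the submitters' processing notes also name BWA and hg19. Caller settings were not found in these sources. Each loop has, as deposited by the authors, an observed count of contacts, 4 expected counts from the donut, horizontal, vertical and lower-left neighbourhoods, and 4 q-values. Depth of the replicates is unknown, since the list gives no totals.

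Positions were written from 1. Loop density excludes from the rest of chromosome 19 the ends beyond the first and last loop and the anchor-free stretch at the centromere. The 19.7 Mb cluster kept its full 4.8 Mb, which includes the start of that stretch, from 24275001 to 24500000. Its density is therefore slightly low by comparison. Shares have Clopper-Pearson intervals, counts exact Poisson intervals, ratios of densities exact conditional intervals, and medians order-statistic intervals, computed with SciPy 1.17.1. Values relative to loops of like span or expectation used 40 bins over the whole list. Intervals cover counting error only. Networks were built with networkx 3.6.1. Calculations were tested on simulated data. Loops named in each cluster are the 3 with the highest counts, the 3 with the highest ratios at an expectation of at least 1, the 2 longest, and the 2 anchors with most loops; others were singled out after their values were seen. The members and lists were chosen with earlier results of these data known. Nothing says that the replicates came from separate cultures. No sequence was printed, since loops are in hg19 and no genome of that build was used here.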

Additional observations from a re-analysis of the deposited data

How the results depend on the processing

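Of 87 alternative values, 72 stayed the same, 9 lost the call, 2 moved and 4 changed direction. For ratios and differences, the same means an unchanged direction and an unchanged call, which includes values called in neither setting. Shares carried no call. They counted as the same inside the main interval and as moved outside it. The density ratio of the 36.5 Mb cluster had an interval that included 1 with loops of at least 2 merged pixels (1.19), borders moved outward (1.24) or inward (1.30), 100 kb windows (1.17) and spans up to 700 kb (1.24). In 100 kb windows the ratio of the 56.5 Mb cluster was 0.752, with an interval that included 1. The 44.3 Mb cluster fell below the rest at 0.954 with 2 merged pixels and 0.974 in windows, and was called in neither direction. With spans up to 700 kb the ratio of median spans was 0.955, from 105 against 110 kb. At like expectation the strength ratio was 1.02, an alternative chosen after seeing the data. Depth minus that of the rest lost its call with 10 kb anchors in the 19.7 Mb cluster (-0.375, 4 loops) and the 56.5 Mb cluster (-0.0816, 6 loops), and was 0.0469 in the 44.3 Mb cluster (2 loops), where it was not called. The share of loops with a shared anchor was 93.3% with anchors within 10 kb merged. Without the 36.5 Mb cluster the pooled share was 80.3% (73.0 to 86.3), below the rest at 90.9% (89.2 to 92.5). Of the other 4 clusters, only the 19.7 Mb cluster lay below the rest with no overlap, at 54.8% (38.7 to 70.2). Lower density in the 19.7 Mb cluster, and lower depth in the 36.5 and 52.0 Mb clusters, kept their calls in every alternative run for them. No paired analysis was possible because the list merges the 6 replicates, and for the same reason no replicate could be left out.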
